A study of Homo sapiens with 4 samples.

Results

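The genes described here are CSF1, 6 chemokine genes of the CXC and CC families (CXCL1, CXCL2, CXCL3, CXCL5, CXCL16 and CCL20), the CX3C chemokine CX3CL1, the cytokine IL18 and the TNF-induced gene TNFAIP2. They were taken by gene symbol from a deposited table of TPM values (transcript abundance corrected for gene length and library size), and all 10 were found among its 33478 rows. The table covers MHCC-97H, a human hepatocellular carcinoma line known for its high metastatic capacity, in 4 RNA sequencing libraries. There were 2 libraries labelled UCK2 shRNA (genotype label UCK2 knockdown, both titled with the same letter B) and 2 libraries labelled control shRNA (genotype label control). UCK2 encodes uridine-cytidine kinase 2, a pyrimidine salvage enzyme. Both groups carry an shRNA, and the labels give no other treatment. The letter B is not explained, and off-target effects of an shRNA and any loss of UCK2 cannot be told apart. Nothing shows that libraries of 1 group were separate cultures, and a p-value here reflects no more than library-to-library spread, which may be technical. The 10 genes were selected on the TPM values of these same groups and their differences, so those differences are given as values without a test.

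CSF1 is the macrophage colony-stimulating factor, a cytokine that keeps monocytes and macrophages alive and steers their differentiation through the receptor CSF1R. Chemokines are small proteins that guide leukocytes: CXCL1, CXCL2, CXCL3 and CXCL5 draw neutrophils through CXCR2, CCL20 draws CCR6-bearing lymphocytes and dendritic cells, and CXCL16 and CX3CL1 are made as membrane proteins that can be shed as soluble attractants. In liver tumours such signals shape which myeloid and lymphoid cells surround the cancer cells, and many of their genes are induced by NF-kB, the transcription factor of inflammatory signalling.

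CXCL1, CXCL2, CXCL3 and CXCL5 lie close together on chromosome 4. The longest run of bases shared by their 4 promoters was 11 bases, GGGAATTTCCC, which has the form of an NF-kB site. The windows below show it in capitals with its flanks, 5′ to 3′ on each gene's strand. These 4 genes also had the same order of libraries, and a link between that order and the run was not tested. Sequences are from RefSeq (GRCh38.p14), whose table held a promoter, from 250 bases before to 50 bases after the start site, for 6 of the 10 genes: these 4, CCL20 and TNFAIP2.
CXCL1, chr4:73869305-73869333, plus strand: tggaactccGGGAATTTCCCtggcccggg
CXCL2, chr4:74099254-74099282, minus strand: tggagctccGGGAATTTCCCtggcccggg
CXCL3, chr4:74038749-74038777, minus strand: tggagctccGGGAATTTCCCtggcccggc
CXCL5, chr4:73998749-73998777, minus strand: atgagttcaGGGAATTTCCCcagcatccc

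The run began 79 bases before the RefSeq start in CXCL1, 78 in CXCL2, 79 in CXCL3 and 91 in CXCL5. In GENCODE release 29 (basic set, hg38) it lay in no annotated exon for CXCL1 and CXCL3, and in an annotated UTR exon for CXCL2 and CXCL5. On either strand 27 of 35116 promoters of the RefSeq table, or 0.0769%, held it, and the run was picked for being shared by these 4. The count is of exact copies, and the windows of CCL20 and TNFAIP2 held none. CCL20 was the only one of the 6 genes whose window held TATAAA on either strand, 29 bases before its start, where 11.5% of all promoters held it. The AP-1 motif TGANTCA was in none of the 6 windows and in 7.71% of all promoters. For context, the 250 bases before the CXCL1 start (chr4:73869143-73869392, plus strand, no annotated exon) are given with the shared run in capitals.
CXCL1: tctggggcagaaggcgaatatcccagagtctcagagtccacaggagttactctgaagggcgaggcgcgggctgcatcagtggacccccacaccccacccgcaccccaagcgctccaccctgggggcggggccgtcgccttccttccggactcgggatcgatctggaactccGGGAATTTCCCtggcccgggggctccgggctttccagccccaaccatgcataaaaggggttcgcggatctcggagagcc
A match describes these letters only and does not show binding in these cells.

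UCK2 itself was not separated by the labels. UCK2 shRNA replicates 1 and 2 had 121 and 67.8 TPM of UCK2, against 136 and 93.6 TPM in control replicates 1 and 2, a log2 difference of -0.31 ± 0.30 (SE, limma adjusted p = 0.640). The direction turned to 0.0592 with quantile normalization, 0.0342 with totals rescaled after dropping the 50 most abundant genes, and 0.10 without UCK2 shRNA replicate 2. Every group direction below therefore rests on the titles. TPM summed to 676811 and 643063 in the UCK2 shRNA libraries, against 850379 and 850534 in the controls, and read depth is unknown. The median log2 difference of the 14038 genes tested (mean of at least 1 TPM) was -0.22 as deposited and -0.01 after median-ratio scaling, so scaled values are given beside the deposited ones. All log2 differences are of log2(TPM + 1), UCK2 shRNA minus control, a scale on which differences of low genes come out too small.

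TNFAIP2 and CSF1 were the most abundant of the 10 transcripts, and CXCL1 the least. In mean TPM over the 4 libraries the order was TNFAIP2 at 105, CSF1 at 68.1, CXCL16 at 24.7, IL18 at 20.0, CXCL5 at 9.11, CCL20 at 6.21, CXCL2 at 3.57, CX3CL1 at 2.85, CXCL3 at 1.62 and CXCL1 at 0.871. The ranges over libraries were apart between CSF1 and CXCL16, between IL18 and CXCL5, and between CX3CL1 and CXCL3. The other neighbours in this order had overlapping ranges. TNFAIP2 nevertheless exceeded CSF1 in all 4 libraries, CXCL16 exceeded IL18 in all 4, and CXCL3 exceeded CXCL1 in all 4. CXCL2 and CX3CL1 changed places, with CXCL2 above CX3CL1 in 1 library only, UCK2 shRNA replicate 2. CXCL1 was the 1 gene of the 10 with a mean under 1 TPM, and the other 9 passed the filter.

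**Figure D1:**
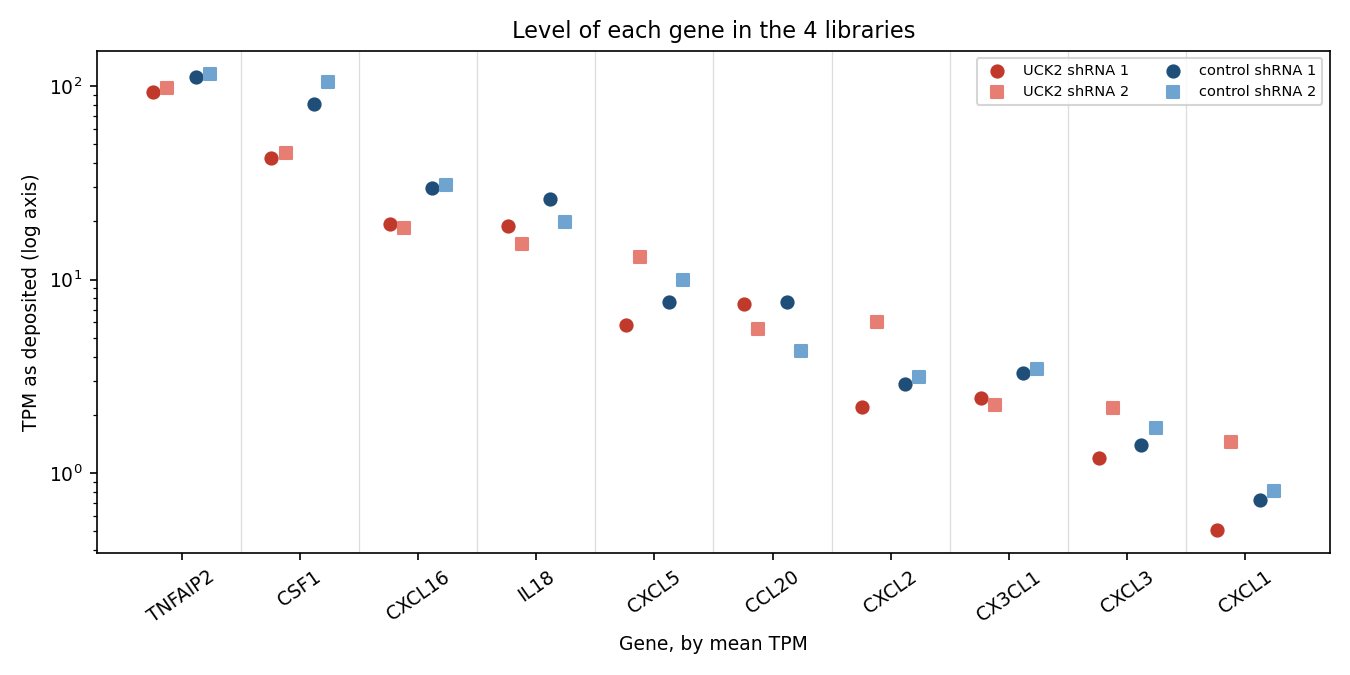
TPM of each of the 10 genes on a log axis, 1 point per library, with red for UCK2 shRNA and blue for control shRNA libraries and genes ordered by mean TPM. Both red points lie below both blue points for TNFAIP2, CSF1, CXCL16, IL18 and CX3CL1, and UCK2 shRNA replicate 2 is the highest point for CXCL5, CXCL2, CXCL3 and CXCL1.

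CSF1 (ENSG00000184371, chromosome 1, 109910242 to 109930992, plus strand of hg38) had the log2 difference farthest from 0 of the 10 genes. It measured 42.6 and 44.8 TPM in UCK2 shRNA replicates 1 and 2, against 80.5 and 105 TPM in control replicates 1 and 2. Both UCK2 shRNA libraries were lower than both controls, and the UCK2 shRNA libraries were close to each other while the controls were not. The means were 43.7 ± 1.54 TPM and 92.5 ± 17.0 TPM (SD, n = 2 each), a ratio of 0.473 and a log2 difference of -1.05. After scaling the libraries read 46.5 and 48.3, against 67.9 and 104, and the log2 difference was -0.82. Of the 14038 genes tested, 56 had a lower log2 difference than CSF1 as deposited and 70 after scaling. In bulk RNA, fewer cells making a transcript and less of it per cell cannot be told apart.

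A ratio of 2 transcripts within a library does not depend on the scaling between libraries. CSF1 over TNFAIP2 was 0.459 and 0.456 in the UCK2 shRNA libraries, against 0.722 and 0.900 in the controls. CSF1 over CXCL16 was 2.20 and 2.42 in the UCK2 shRNA libraries, against 2.70 and 3.38 in the controls. CSF1 was thus lower relative to both genes in each UCK2 shRNA library than in either control. Among all rows of the table CSF1 held place 2524 and 2309 from the top in the UCK2 shRNA libraries, against 1685 and 1232 in the controls. No row of the table overlapped CSF1.

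The protein-coding genes most like CSF1 in their profile over the 4 libraries were MRPL10, PYDC1, RNF114, GPAA1 and DDA1, in that order. Likeness was the Euclidean distance between log2(TPM + 1) profiles centred on each gene, among 7315 genes averaging at least 10 TPM, and ran from 0.119 for MRPL10 to 0.193 for DDA1. The mitochondrial ribosomal protein gene MRPL10 measured 28.3 and 27.2 TPM in the UCK2 shRNA libraries, against 51.2 and 62.7 TPM in the controls. PYDC1, a pyrin-domain protein that binds PYCARD, measured 8.14 and 7.48 TPM, against 15.0 and 19.6 TPM. With 4 libraries many genes share such a profile, and no test applies.

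The neutrophil attractants of chromosome 4 did not separate the groups. CXCL5 (73995642 to 73998779, minus strand) measured 5.81 and 13.0 TPM in UCK2 shRNA replicates 1 and 2, against 7.69 and 9.93 TPM in control replicates 1 and 2. CXCL2 (74097035 to 74099293, minus strand) measured 2.20 and 6.05 TPM in the UCK2 shRNA libraries, against 2.87 and 3.14 TPM in the controls. In both genes UCK2 shRNA replicate 1 was the lowest library and UCK2 shRNA replicate 2 the highest, with the controls between them. CXCL3 (74036589 to 74038807, minus strand) measured 1.19 and 2.17 TPM, against 1.39 and 1.71 TPM. CXCL1 (73869393 to 73871242, plus strand) measured 0.508 and 1.44 TPM, against 0.725 and 0.811 TPM. All 4 genes had the same order of libraries, from UCK2 shRNA 1 over control 1 and control 2 up to UCK2 shRNA 2.

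That order was first seen in these 4 genes, so the shares of genes tested are given for scale only. It was found in 193 genes tested, or 1.37%, and CXCL1 was not among the genes tested. After scaling 3 of these 4 genes kept it, against 2.61% of genes tested, since scaled CXCL3 was lowest in control replicate 1 (1.17, against 1.30 in UCK2 shRNA replicate 1). Scaled UCK2 shRNA replicate 1 and control replicate 1 were close in CXCL2 (2.39 and 2.42) and in CXCL5 (6.33 and 6.48). UCK2 shRNA replicate 2 was the highest library for all 4 genes, as deposited and after scaling, against 14.6% and 30.0% of genes tested. Scaled, 3 of the 4 were also lowest in UCK2 shRNA replicate 1, against 6.08% with both extremes. Between the UCK2 shRNA libraries the 4 genes differed 1.82-fold to 2.83-fold (replicate 2 over replicate 1), and between the controls 1.09-fold to 1.29-fold. The group means were therefore close beside their spread: CXCL5 averaged 9.41 ± 5.09 TPM in UCK2 shRNA and 8.81 ± 1.58 TPM in control libraries, and CXCL2 averaged 4.12 ± 2.72 and 3.01 ± 0.191 TPM (SD, n = 2 each). The log2 differences were 0.12 for CXCL1, 0.25 for CXCL2, 0.05 for CXCL3 and 0.00331 for CXCL5. Without UCK2 shRNA replicate 2 they were -0.23, -0.33, -0.21 and -0.52, so the sign of each turned without that library. Without control replicate 1 CXCL3 (-0.04) and CXCL5 (-0.16) also turned.

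**Figure D2:**
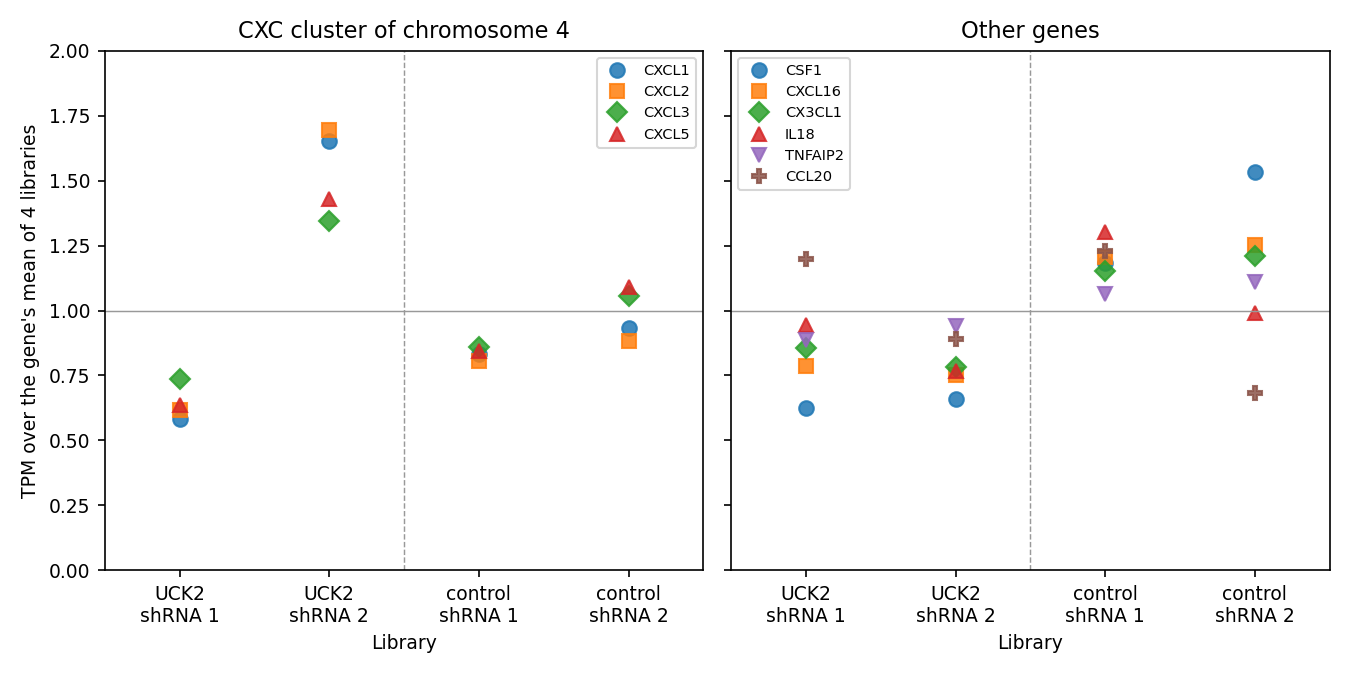
TPM of each gene divided by its own mean over the 4 libraries, for CXCL1, CXCL2, CXCL3 and CXCL5 (left) and the other 6 genes (right), with the UCK2 shRNA libraries left of the dashed line and the controls right of it. On the left all 4 genes are lowest in UCK2 shRNA 1 (0.583 to 0.738) and highest in UCK2 shRNA 2 (1.34 to 1.70). On the right CSF1 lies at 0.626 and 0.658 in the UCK2 shRNA libraries and at 1.18 and 1.53 in the controls.

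CXCL2 and CXCL1 kept similar proportions to each other while their levels moved, and the ratios of CXCL5 and CXCL3 to CXCL1 moved more. CXCL2 over CXCL1 was 4.33 and 4.20 in the UCK2 shRNA libraries, against 3.97 and 3.87 in the controls. CXCL5 over CXCL1 was 11.4 and 9.03 in the UCK2 shRNA libraries, against 10.6 and 12.2 in the controls. CXCL3 over CXCL1 was 2.35 and 1.51, against 1.92 and 2.11. The first of these ratios spanned 1.12-fold over the libraries and the last 1.56-fold, while CXCL1 itself spanned 2.83-fold. CXCL5 itself spanned 2.24-fold and CXCL3 1.82-fold, so the span of the last ratio was not small beside that of CXCL3.

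CXCL1, CXCL2 and CXCL3 are close paralogs, so reads could be split between them. Their coding sequences, 321 bases each in GENCODE release 29, were 90.7% to 94.4% identical in pairs, and each was 57.0% to 57.6% identical to that of CXCL5. Across the whole transcript, 0 of 948 windows of 150 bases in CXCL1, 0 of 1069 in CXCL2 and 0 of 926 in CXCL3 occurred exactly in a transcript of any other gene. The same held for the longest coding transcript of the other 7 genes. The count of exact 150-base windows does not cover shorter reads or reads placed with mismatches. Whether reads were split between these genes was not tested. The sources used here do not say how reads that fit several genes were assigned. CXCL8, the best known neutrophil attractant of the same locus, measured 1.78 and 0.935 TPM in the UCK2 shRNA libraries, against 0.703 and 1.04 TPM in the controls, and was highest in UCK2 shRNA replicate 1 rather than 2.

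The membrane-bound chemokines were both lower in the UCK2 shRNA libraries than in either control, as were 44.4% of genes tested (15.5% after scaling). CXCL16 (ENSG00000161921, chromosome 17, 4733526 to 4739922, minus strand), the ligand of CXCR6, measured 19.4 and 18.5 TPM in the UCK2 shRNA libraries, against 29.8 and 30.9 TPM in the controls. The means were 19.0 ± 0.619 and 30.3 ± 0.802 TPM (SD, n = 2 each), a log2 difference of -0.65. After scaling CXCL16 read 21.2 and 20.0, against 25.1 and 30.8, with a log2 difference of -0.42, and 689 genes tested lay lower. The last 85 bases of CXCL16 overlap MED11, a Mediator subunit gene on the opposite strand at 26.9 and 22.3 TPM, against 35.1 and 31.3 TPM, and the sources used here do not say if counting used strand.

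CX3CL1 (ENSG00000006210, chromosome 16, 57372458 to 57385048, plus strand), also called fractalkine and the ligand of CX3CR1 on monocytes and natural killer cells, measured 2.44 and 2.23 TPM in the UCK2 shRNA libraries, against 3.28 and 3.45 TPM in the controls. Its groups were apart with and without scaling (2.65 and 2.41 scaled, against 2.76 and 3.44). Its log2 difference was -0.39, or -0.21 scaled, and 3546 genes tested lay lower as deposited and 2777 after scaling. The ratio of CX3CL1 to CXCL16 spanned 1.14-fold, at 0.126 and 0.120 in UCK2 shRNA and 0.110 and 0.112 in control libraries. It was thus somewhat higher in both UCK2 shRNA libraries than in either control.

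IL18 (ENSG00000150782, chromosome 11, 112143251 to 112164117, minus strand), a cytokine of the interleukin 1 family made as a precursor that caspase 1 cleaves, measured 18.8 and 15.3 TPM in the UCK2 shRNA libraries, against 26.0 and 19.8 TPM in the controls. The groups were apart by less than the spread between the controls, and after scaling they overlapped (20.5 and 16.5, against 21.9 and 19.7, log2 difference -0.17, as deposited -0.40). IL18 lies inside a second row named SDHD on the opposite strand, which was listed at 1.14 and 0 TPM, against 0 and 1.17 TPM.

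TNFAIP2 (ENSG00000185215, chromosome 14, 103123442 to 103137439, plus strand), a TNF-induced protein that takes part in forming thin membrane bridges between cells, measured 93.0 and 98.3 TPM in the UCK2 shRNA libraries, against 111 and 116 TPM in the controls. Its log2 difference was -0.25, close to the median of all genes tested. After scaling the groups overlapped, at 101 and 106, against 94.0 and 116, with a log2 difference of -0.01, and the sign turned with quantile normalization (0.15) and with totals rescaled after dropping the 50 most abundant genes (0.10). CCL20 (ENSG00000115009, chromosome 2, 227813842 to 227817564, plus strand) measured 7.43 and 5.52 TPM, against 7.63 and 4.25 TPM, and the groups overlapped. Its log2 difference of 0.14 turned to -0.22 without control replicate 2 and to -0.04 without UCK2 shRNA replicate 1.

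**Figure D3:**
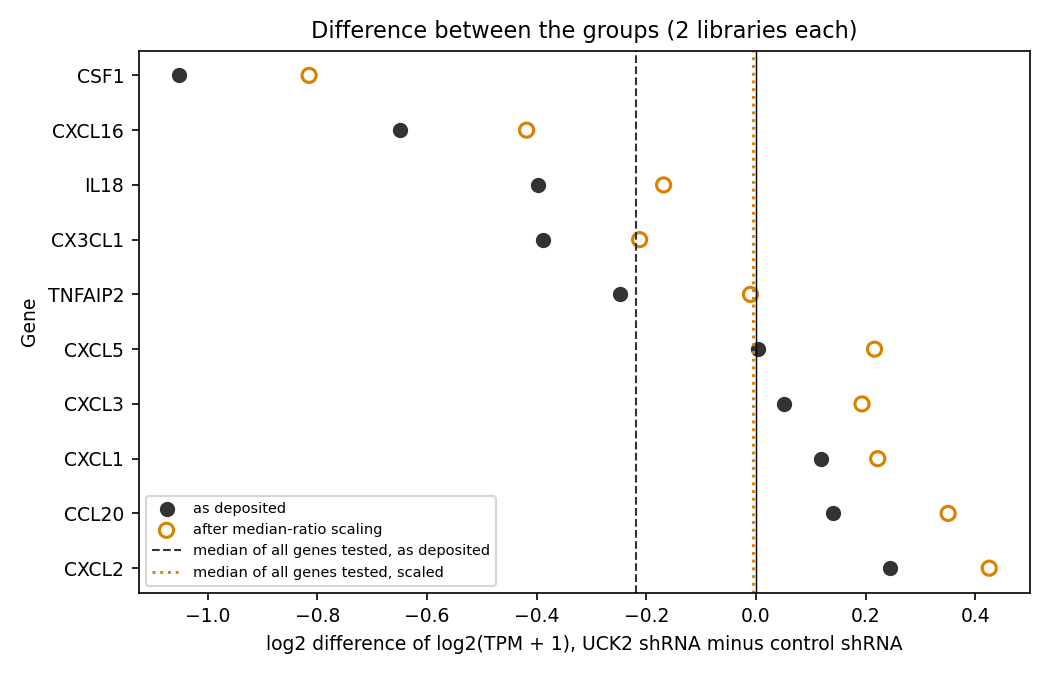
log2 difference between the groups (UCK2 shRNA minus control, on log2(TPM + 1), n = 2 each) for each of the 10 genes, as deposited (filled) and after median-ratio scaling (open), with vertical lines at the medians of all genes tested. CSF1 lies at -1.05 and -0.82, TNFAIP2 lies within 0.05 of the median of all genes in both forms, and CXCL2 lies highest at 0.25 and 0.43.

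Of the 10 genes, 5 had groups apart and lower in the UCK2 shRNA libraries (CSF1, CXCL16, CX3CL1, IL18 and TNFAIP2), where 44.4% of genes tested did so, and 0 had groups apart and higher, against 5.46%. After scaling 3 did so in the lower direction (CSF1, CXCL16 and CX3CL1), against 15.5% of genes tested, and 0 in the higher direction, against 16.0%. These contrasts had been seen when the genes were chosen, so nothing is read from the counts. The median log2 difference of the 10 genes was -0.12, and 0.09 after scaling, beside -0.22 and -0.01 for all genes tested.

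CCL15 and CXCL16 had the highest mean levels among the chemokine ligands. Of 43 chemokine ligand genes listed and present in the table, between 11 and 12 reached 1 TPM per library. The list left out CCL14, CCL3L3, CCL4L1 and the readthrough CCL15-CCL14, so the sums and shares below do not hold them; the readthrough alone measured 9.71 and 9.86 TPM in the UCK2 shRNA libraries, against 7.97 and 8.37 TPM in the controls. They summed to 90.0 and 88.0 TPM in the UCK2 shRNA libraries, against 111 and 124 TPM in the controls. CXCL1, CXCL2, CXCL3 and CXCL5 together held 10.8% and 25.8% of that sum in the UCK2 shRNA libraries, against 11.4% and 12.6% in the controls. UCK2 shRNA replicate 2 was the library that stood apart, and the other UCK2 shRNA library lay beside the controls. The group difference was 6.30 percentage points, and -1.19 without UCK2 shRNA replicate 2. CXCL16 held 21.6% and 21.1%, against 26.8% and 24.9%.

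**Figure D4:**
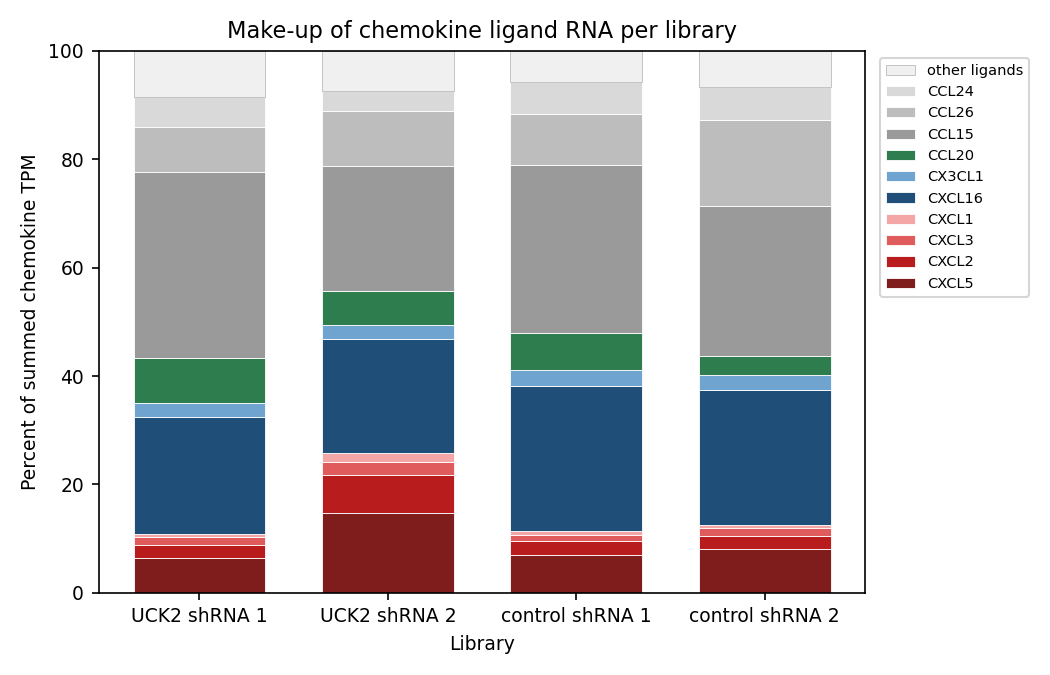
Share of each chemokine ligand in the summed chemokine TPM of a library, in percent, as stacked bars from 0 to 100, with the UCK2 shRNA libraries left of the controls. The red segments (CXCL5, CXCL2, CXCL3 and CXCL1) add up to 25.8% in UCK2 shRNA 2 and to between 10.8% and 12.6% in the other 3 libraries.

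The other chemokine ligands, and the further genes of these pathways, were tested over the whole table with limma on log2(TPM + 1). No gene passed an adjusted p of 0.05, with 0 of 14038 higher and 0 lower, while 1.38% were higher and 14.0% lower at an unadjusted p under 0.05. After scaling 9 genes passed as higher (0.0641%), none in these lists, and 0 as lower, with 3.97% higher and 1.42% lower at an unadjusted p under 0.05. Of 100 genes of 12 lists that were tested, 0 passed, and 16 had an unadjusted p under 0.05, all 16 lower, near the share for all genes. After scaling 0 of the 100 had an unadjusted p under 0.05. The count of 0 over the whole table became 242 higher and 108 lower without control replicate 1, and to 32 higher and 21 lower without control replicate 2. Values below are UCK2 shRNA first, then control, as mean ± SD (n = 2 each).

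Of 36 other chemokine ligands in the table, 6 were tested and 14 were listed at 0 in all libraries. CCL15, a ligand of CCR1, averaged 25.6 ± 7.50 and 34.5 ± 0.133 TPM. It shares its whole span of 5182 bases with the row of the readthrough transcript CCL15-CCL14, so its level is uncertain. CCL26, or eotaxin-3, averaged 8.24 ± 1.06 and 15.1 ± 6.55 TPM, and CCL24, or eotaxin-2, 4.09 ± 1.20 and 7.03 ± 0.760 TPM. Their log2 differences were -0.44, -0.74 and -0.67, with limma adjusted p = 0.397, 0.332 and 0.329, and without control replicate 1 CCL26 passed as lower (limma adjusted p = 0.0326).

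Most receptors of these ligands were under the filter. CSF1R measured 0.403 and 0.701 TPM in the UCK2 shRNA libraries, against 0.193 and 0.186 TPM in the controls, and CXCR1 and IL18RAP were listed at 0 in all libraries. Of 13 receptors and decoys 2 were tested: ACKR3, a decoy receptor of CXCL12, at 60.4 ± 2.62 and 71.2 ± 15.8 TPM, and IL18BP, a soluble trap of IL18, at 2.28 ± 0.841 and 2.12 ± 0.464 TPM (limma adjusted p = 0.623 and 0.953). IL18BP overlaps the far more abundant NUMA1 on the opposite strand, and IL18R1, a subunit of the IL18 receptor, averaged 1.28 ± 0.413 and 0.669 ± 0.160 TPM, below the filter. Among other growth factors of myeloid cells, IL34, the second ligand of CSF1R, measured 0.300 and 0.588 TPM, against 0.409 and 0.293 TPM. The stress cytokine GDF15 averaged 64.7 ± 14.1 and 81.8 ± 2.37 TPM, the KIT ligand KITLG 25.0 ± 5.93 and 25.1 ± 6.95 TPM, and FLT3LG 2.84 ± 1.02 and 2.01 ± 0.291 TPM. None of these 3 passed (limma adjusted p = 0.417, 0.999 and 0.662).

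Shedding and IL18 processing rest on proteases and the inflammasome. Of 15 such genes 10 were tested, with a median log2 difference of -0.25 (scaled -0.02). PYCARD, the inflammasome adaptor, averaged 98.8 ± 4.04 and 153 ± 17.4 TPM, with a log2 difference of -0.62 ± 0.16 (SE, limma adjusted p = 0.294, scaled -0.38). Both UCK2 shRNA libraries of PYCARD were lower than both controls as deposited, as in 44.4% of genes tested. ADAM10, which sheds CXCL16 and CX3CL1, averaged 69.7 ± 16.2 and 65.3 ± 24.8 TPM, and CASP4, an inflammatory caspase, 26.7 ± 3.36 and 29.9 ± 2.41 TPM (limma adjusted p = 0.870 and 0.723). CASP1, the caspase that cleaves the IL18 precursor, stayed at or under 0.230 TPM in every library.

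NF-kB factors, kinases and inhibitors were represented by 29 tested genes of 30 in the table; 23 of them lay below 0 in log2 difference as deposited and 12 after scaling. Their median was -0.19, and 0.04 after scaling, beside -0.22 and -0.01 for all genes tested, and 6 of 29 had an unadjusted p under 0.05 as deposited, all lower (14.0% of all genes tested). After scaling 0 of 29 did, where 1.42% of all genes were lower. RBCK1, of the linear ubiquitin ligase, averaged 144 ± 43.6 and 152 ± 9.65 TPM (limma adjusted p = 0.847), and SHARPIN, of the same complex, 63.6 ± 2.13 and 82.5 ± 1.69 TPM (limma adjusted p = 0.325). SHARPIN shares 3113 bases with MAF1 on the opposite strand, which is more abundant. The NF-kB target and inhibitor NFKBIA, named outside the rule, measured 45.1 and 39.8 TPM, against 56.0 and 57.8 TPM.

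Among 17 tested receptors and adaptors upstream of NF-kB the median log2 difference was -0.35, and -0.12 after scaling. IRAK1, a kinase below the interleukin 1 and Toll-like receptors, averaged 294 ± 33.3 and 426 ± 34.9 TPM, a log2 difference of -0.53 ± 0.16 (SE, limma adjusted p = 0.294, scaled -0.29). The receptors LTBR, at 195 ± 18.6 and 252 ± 1.60 TPM, and TNFRSF1A, at 187 ± 21.0 and 228 ± 13.7 TPM, did not pass (limma adjusted p = 0.316 and 0.417). Of 19 other cytokines in the table, 7 were tested. TGFB1 averaged 55.0 ± 7.23 and 88.7 ± 10.5 TPM (log2 difference -0.68, limma adjusted p = 0.294, scaled -0.44), IL32 51.7 ± 0.851 and 60.2 ± 1.67 TPM, and VEGFA 40.6 ± 12.1 and 41.2 ± 6.74 TPM. TGFB1 overlaps HNRNPUL1 and CCDC97 on the opposite strand. Of the NF-kB inducers TNF and IL1B, both named outside the rule, TNF was at or under 0.120 TPM in every library, and IL1B measured 0.811 and 2.66 TPM, against 0.453 and 0.560 TPM. Of 14 other TNF-induced genes 7 were tested and 0 passed, with SOD2 at 63.5 ± 15.1 and 71.5 ± 8.87 TPM, ICAM1 at 23.7 ± 4.63 and 25.8 ± 4.82 TPM, (SOD2 lies across WTAP on the opposite strand) and TNFAIP1 at 16.1 ± 1.09 and 18.7 ± 2.30 TPM (median log2 difference -0.12, scaled 0.11).

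Of 17 hepatocyte and hepatoma markers 13 were tested, the most abundant being KRT8 (which overlaps KRT18 on the opposite strand) at 1900.3 ± 153 and 2682 ± 611 TPM, KRT18 at 521 ± 85.2 and 796 ± 165 TPM and APOH at 53.5 ± 9.84 and 61.9 ± 8.49 TPM. Their median log2 difference was -0.44 (scaled -0.23), with 6 of 13 at an unadjusted p under 0.05 as deposited, all lower, beside 14.0% of all genes tested, and 0 of 13 after scaling, beside 1.42%. ALB measured 20.1 and 18.6 TPM in the UCK2 shRNA libraries, against 29.5 and 25.8 TPM in the controls, and AFP 10.9 and 10.5 TPM, against 16.2 and 13.2 TPM. AHSG, a plasma protein of hepatocytes, measured 0.832 and 0.673 TPM, against 1.08 and 0.963 TPM, and GPC3 was at or under 0.0711 TPM in the UCK2 shRNA libraries and listed at 0 in the controls. The 19 macrophage and leukocyte markers summed to 53.6 and 58.6 TPM in the UCK2 shRNA libraries, against 55.9 and 65.0 TPM in the controls. CD68, a lysosomal protein, made up most of that at 44.7 ± 1.30 and 49.6 ± 7.10 TPM, ITGAM and ITGAX averaged 4.39 ± 0.0494 and 5.31 ± 0.966 TPM and 1.83 ± 0.614 and 1.84 ± 0.376 TPM, PTPRC stayed at or under 0.551 TPM, and AIF1, CD3E and MS4A1 were listed at 0 throughout. Fibroblast and endothelial markers summed to 43.6 and 40.6 TPM, against 55.3 and 28.6 TPM, mostly PECAM1 (21.3 ± 0.775 and 22.5 ± 2.93 TPM) and LUM (15.9 ± 4.49 and 16.7 ± 15.4 TPM). The labels' extraction protocol mentions retinas, but 0 of 12 retina markers averaged 1 TPM and they summed to 2.27 and 3.39 TPM, against 2.31 and 3.66 TPM.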

How the data were processed

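RNA of 4 MHCC-97H libraries was sequenced, and the values used are TPM as deposited by the authors, 1 column per library. Tools listed, without a role, are hg38 as build, edgeR, DESeq, HTSeq and TopHat2 2.0.14, per the submitters' processing notes. TPM keeps no read depth, so no counting interval is given and count tests were not run. Libraries were grouped by title. The descriptions of 2 libraries name another cell line number or UCK3 in place of UCK2. Genes averaging at least 1 TPM were compared with limma 3.58.1 in R 4.3.3 (eBayes with trend, two-sided, Benjamini-Hochberg over all genes tested, threshold 0.05), which was tested on simulated data. The members and lists were chosen with earlier results of these data known. Named genes were the 10 members, UCK2, the 3 most abundant and any passing gene of each list, the 5 genes most like CSF1, and overlapping genes. CXCL8, CSF1R, IL34, CASP1, NFKBIA, TNF, IL1B, ALB, AFP, AHSG, GPC3, PTPRC and genes given as listed at 0 were named after their values were seen. Not analysed here: genes of the mitochondrial genome, and coding genes from chromosomes 21, 22 and Y. List symbols without a row were left out. The values of 1 gene of the NF-kB list that the rule names are not reported here. Sequences came from RefSeq and GENCODE release 29, with alignment in Biopython 1.88, and figures from matplotlib 3.10.9.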

Additional observations from a re-analysis of the deposited data

How the results depend on the processing

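No read depth is known, each group has 2 libraries, and 1 library decides several values. Over the whole table, 0 genes were called; median-ratio scaling gave 9 higher and quantile normalization 8 higher, and leaving out 1 library gave 0 to 242 higher and 0 to 108 lower. For the other lists leaving out 1 library gave 0 to 2 higher (TBK1 and LUM) and 0 to 1 lower (CCL26), all without control replicate 1. The replicate number as a block gave 29 higher and 10 lower over the whole table. The deviations of same-numbered libraries from their group means had only a weak negative correlation (-0.21 over 14038 genes). The crossed replicate block was added after seeing the data. It gave 91 higher and 636 lower, with 5 of the lists lower (IRAK1, KRT8, KRT18, PYCARD and TGFB1). The UCK2 difference was 0.0592 with quantile normalization, 0.0342 with totals rescaled after dropping the 50 most abundant genes, and -0.72 to 0.10 when 1 library was left out. The members' median was 0.0918 with scaling, 0.00746 with quantile normalization, 0.184 with rescaling, -0.32 with a mean of at least 5 TPM, -0.25 without CXCL1 (added after seeing the data), and -0.31 to -0.13 when 1 library was left out. CSF1 stayed between -1.24 and -0.69, CXCL16 between -0.68 and -0.31, CX3CL1 between -0.51 and -0.13 and IL18 between -0.59 and -0.06 in 13 settings, the reported one included. The chemokine share difference ran from -1.19 to 13.8 points when 1 library was left out. The cause of these shifts was not tested.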

Other observations

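The profile of CXCL2 over the 4 libraries was compared, by the measure used for CSF1, with 7315 protein-coding genes averaging at least 10 TPM. CXCL1, CXCL3 and CXCL5 averaged less and were not compared, so their closeness to CXCL2 is not ranked here. Among the genes compared, the closest were PHGDH, NUPR1, ATF5, PSAT1 and CAMTA2. They were looked up after the CXCL values had been seen, so they are a description. With 4 libraries many genes share such a profile, and no test applies. PHGDH and PSAT1 are enzymes of serine synthesis, and NUPR1 and ATF5 are transcriptional regulators known from amino acid and endoplasmic reticulum stress. PHGDH measured 35.6 and 76.1 TPM in UCK2 shRNA replicates 1 and 2, against 37.3 and 40.4 TPM in control replicates 1 and 2. NUPR1 measured 33.4 and 70.8 TPM in the UCK2 shRNA libraries, against 36.1 and 47.3 TPM in the controls. ATF5 measured 65.2 and 115 TPM, against 71.7 and 81.2 TPM, and PSAT1 72.9 and 137 TPM, against 78.8 and 70.5 TPM. CAMTA2 measured 15.9 and 32.1 TPM, against 21.8 and 16.8 TPM. PSAT1 was lowest in control replicate 2, while CXCL2 was lowest in UCK2 shRNA replicate 1.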
